A study of Homo sapiens with 6 samples.

Results

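The 43 genes described here encode the working parts of the lysosome and 2 of the transcription factors that control it. They are TFEB and TFE3, 6 proteins and channels of the lysosomal membrane, 13 cathepsins and other proteases, 7 glycosidases, 4 sulfatases and related enzymes, 5 lipid hydrolases and small activator proteins, and 6 subunits of the proton pump. They were chosen by gene name among the 57914 genes of the deposited table, and all 43 were found there, once each. RNA was sequenced from A375, a widely used line of human melanoma cells. Before sorting by flow cytometry, they took up Aldefluor, a substrate that turns fluorescent where aldehyde dehydrogenase (ALDH) is active. The ALDH_High group holds 3 libraries from the brightest 5% and the ALDH_Low group 3 from the dimmest 5%. Both groups share the line, the medium (high-glucose DMEM with serum and glutamine) and the staining, and differ in the sort gate. Nothing in the labels says whether the 3 libraries of a group come from separate cultures, so the p-values measure the spread between these libraries, which may be technical. RNA was measured in bulk, where fewer cells with a transcript and less transcript per cell cannot be told apart.

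Lysosomes break down proteins, glycans and lipids in an acidic lumen. The vacuolar ATPase pumps in the protons, and the membrane proteins LAMP1 and LAMP2 line the inside of the membrane. TFEB, TFE3, MITF and TFEC form the MiT/TFE family of transcription factors, which bind E-box sites in lysosomal promoters, the best known being the CLEAR element. When nutrients are plentiful, the kinase complex mTORC1 sits on the lysosome and keeps TFEB and TFE3 out of the nucleus by phosphorylation. Their activity is therefore set largely by where the protein is, which RNA levels do not measure. In melanocytes and melanoma the family member MITF is the lineage factor.

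Promoter stretches of 6 genes are printed because they hold the sequence the MiT/TFE factors recognise: the 5 with an E-box core that were higher in ALDH_High, and MCOLN1, which holds the CLEAR motif and did not pass the test. They run 5′ to 3′ on the strand of the gene and end at the base before the RefSeq transcript start (RefSeq, GRCh38.p14). Capitals mark the E-box core CACGTG, or the whole CLEAR motif, TCACGTGA with a G before it and a C after it, where all its letters are present.
GAA (chr17:80101461-80101580, plus strand): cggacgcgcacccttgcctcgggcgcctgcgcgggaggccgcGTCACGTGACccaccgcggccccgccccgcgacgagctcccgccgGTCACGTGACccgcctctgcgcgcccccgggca
GALNS (chr16:88856948-88857147, minus strand): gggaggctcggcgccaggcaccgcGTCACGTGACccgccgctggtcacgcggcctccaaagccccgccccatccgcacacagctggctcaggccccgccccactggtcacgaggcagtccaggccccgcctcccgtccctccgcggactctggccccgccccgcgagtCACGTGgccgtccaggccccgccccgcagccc
LAMP1 (chr13:113297019-113297238, plus strand): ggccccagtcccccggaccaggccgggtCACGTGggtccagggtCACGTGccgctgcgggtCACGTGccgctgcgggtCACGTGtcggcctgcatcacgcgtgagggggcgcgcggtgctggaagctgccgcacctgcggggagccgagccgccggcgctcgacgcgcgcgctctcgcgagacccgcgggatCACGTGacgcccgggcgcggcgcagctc
CTSA (chr20:45891215-45891334, plus strand): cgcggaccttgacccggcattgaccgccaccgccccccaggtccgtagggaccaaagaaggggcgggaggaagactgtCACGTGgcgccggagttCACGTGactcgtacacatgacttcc
CTSF (chr11:66568607-66568756, minus strand): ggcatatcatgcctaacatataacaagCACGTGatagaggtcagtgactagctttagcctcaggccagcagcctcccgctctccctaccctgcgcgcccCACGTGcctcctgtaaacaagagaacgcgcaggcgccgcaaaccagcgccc
MCOLN1 (chr19:7522504-7522623, plus strand): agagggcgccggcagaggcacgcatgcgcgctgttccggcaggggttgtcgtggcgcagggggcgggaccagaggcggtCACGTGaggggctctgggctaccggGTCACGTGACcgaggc

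RefSeq promoter windows, which run from 250 bases before to 50 bases after a transcript start, were matched by symbol for 29 of the 43 genes. The core CACGTG reads the same on both strands and was found in a window of 11 of the 29 (37.9%). It was found in 12.5% of the 11361 tested genes with a window, and in 7.26% of all 35116 windows. The flanked form TCACGTGA, which contains the core, was found in 6 of the 29 (20.7%) and in 2.09% of tested genes. The CLEAR motif, which contains both and also reads the same on both strands, was found in GAA, GALNS and MCOLN1, against 0.836% of tested genes and 0.353% of all windows. GAA, acid alpha-glucosidase, held it in 2 places, with cores 76 and 31 bases before the start, and GALNS held it once. The LAMP1 window held 6 cores and none with the whole CLEAR motif; 5 lie upstream and are printed, and the other begins at the last base before the start. For CTSA and CTSF, GENCODE places the gene start 1191 and 273 bases further upstream than the RefSeq start used here, so these stretches lie inside the GENCODE gene. For GAA and GALNS it is 48 and 23 bases further upstream, so the GAA motif with its core 31 bases before the RefSeq start also lies inside the GENCODE gene. The other genes with a core were CTSD, CD63, CLCN7, NEU1 and ATP6V0D1. A match of letters is a description of the window and does not show that a factor binds there.

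Of the 43 genes, 8 were higher and 1 was lower in ALDH_High with 0.05 as the limit for the adjusted p (quasi-likelihood test of edgeR, Benjamini-Hochberg over the 17047 genes tested). All 43 had enough counts to be tested. The share that passed, 20.9%, was close to that of all genes tested, 20.6%, so the number of calls does not set these genes apart. By direction, 18.6% of them were higher against 10.8% of all genes, and 2.33% were lower against 9.83%. The groups did not overlap for 22 of the 43 (51.2%), 18 higher and 4 lower, against 37.8% of all genes. A log2 fold change above 0 was found in 28 of the 43 (65.1%), against 48.6% of all genes tested. The median log2 fold change of the 43 was 0.18, beside -0.013 for all genes tested. Without ALDH_High library 1 this median was 0.085. The count of 9 also rested on single libraries: leaving out ALDH_High library 2 gave 5, and leaving out ALDH_Low library 2 or 3 gave 4. Changes were mostly small, since 3 of the 43 (6.98%) reached an absolute log2 fold change of 1, against 14.5% of all genes. The median SE was 0.136 for the 43 and 0.185 for all genes tested. The shares without overlap and with large fold changes were not matched for expression level.

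**Figure D1:**
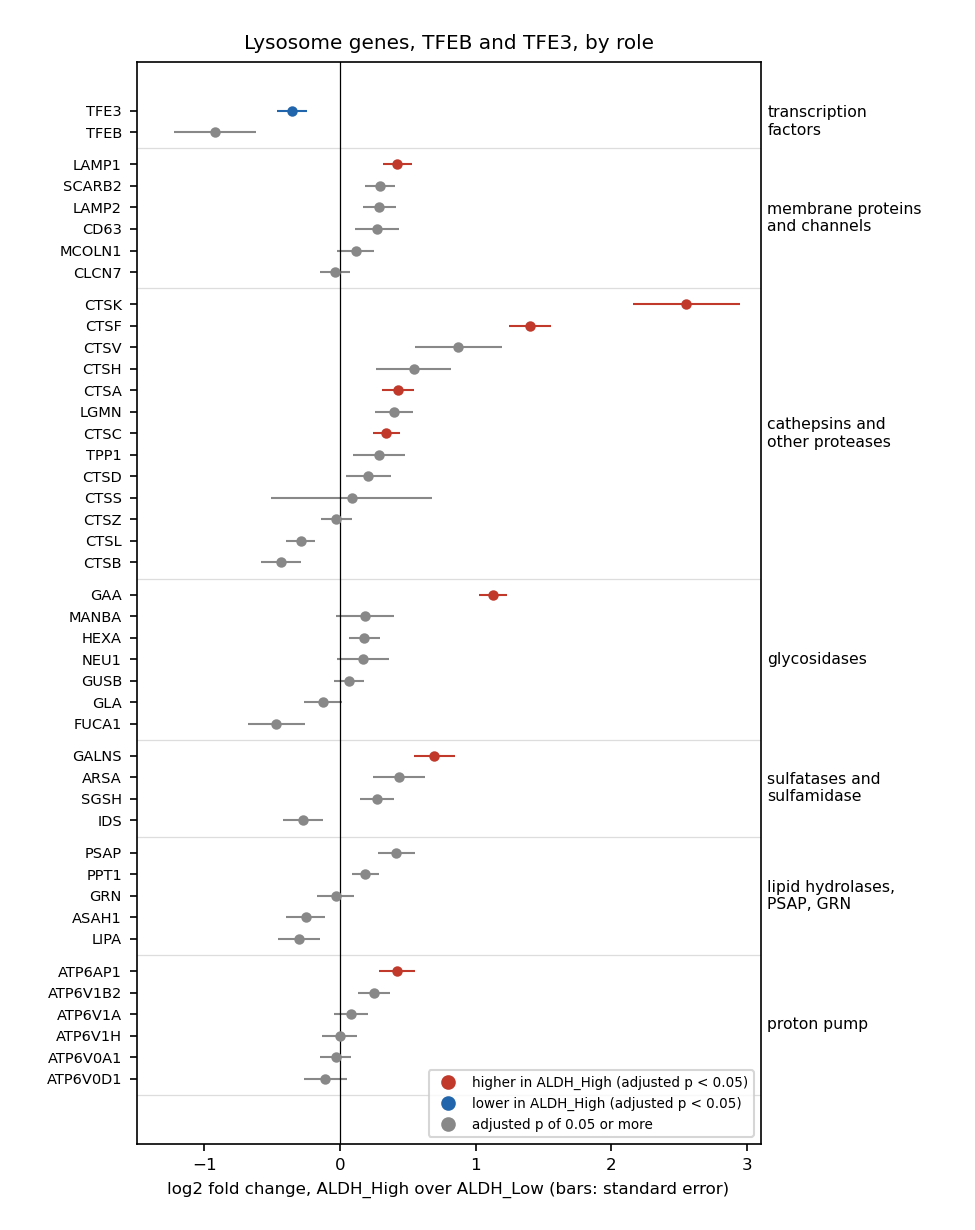
Log2 fold change of each of the 43 genes (x axis; ALDH_High over ALDH_Low, bars are standard errors of the edgeR fit), grouped by role. CTSK, CTSF and GAA lie farthest to the right at 2.55, 1.40 and 1.13, most other genes lie within 0.5 of 0, and both transcription factors lie left of 0.

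TFE3 and TFEB, the transcription factors of the set, were both below 0. TFE3 (ENSG00000068323) had 106, 91.2 and 93.3 CPM (counts scaled to the TMM-adjusted library size) in ALDH_High libraries 1 to 3 and 122, 131 and 118 CPM in ALDH_Low libraries 1 to 3. The groups did not overlap, and TFE3 was lower in ALDH_High by a narrow margin (log2 fold change -0.35, SE 0.11, edgeR adjusted p 0.0479). It passed the threshold under 3 of 15 alternative analyses, and missed it when any library other than ALDH_High library 1 was left out (edgeR adjusted p up to 0.206). TFEB (ENSG00000112561) had 1.18, 1.59 and 1.32 CPM in ALDH_High and 3.48, 2.17 and 2.12 CPM in ALDH_Low, from 30 to 134 counts a library. All 3 ALDH_High values lay below all 3 ALDH_Low values, with ALDH_Low library 1 far above the rest. TFEB did not pass (log2 fold change -0.92, SE 0.30, edgeR adjusted p 0.0556); it passed under 2 of 15 alternatives.

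Levels of different genes were compared in TPM, which corrects for transcript length. TFE3 was the most abundant MiT/TFE factor in all 6 libraries, at 40.6 ± 1.17 TPM in ALDH_High and 50.2 ± 4.29 TPM in ALDH_Low (SD, n = 3). MITF followed at 6.16 ± 0.690 and 11.3 ± 3.28 TPM, then TFEB at 1.07 ± 0.221 and 1.97 ± 0.631 TPM. TFEC was listed at 0.166 ± 0.111 and 0.368 ± 0.0811 TPM, from 4 to 20 counts a library. TFE3 thus made up 84.6 ± 1.20% of the summed TPM of the family in ALDH_High and 78.8 ± 4.29% in ALDH_Low, and TFEB 2.24 ± 0.507% and 3.06 ± 0.773% (SD, n = 3). MITF was lower in ALDH_High (log2 fold change -0.92, SE 0.19, edgeR adjusted p 0.00667).

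**Figure D2:**
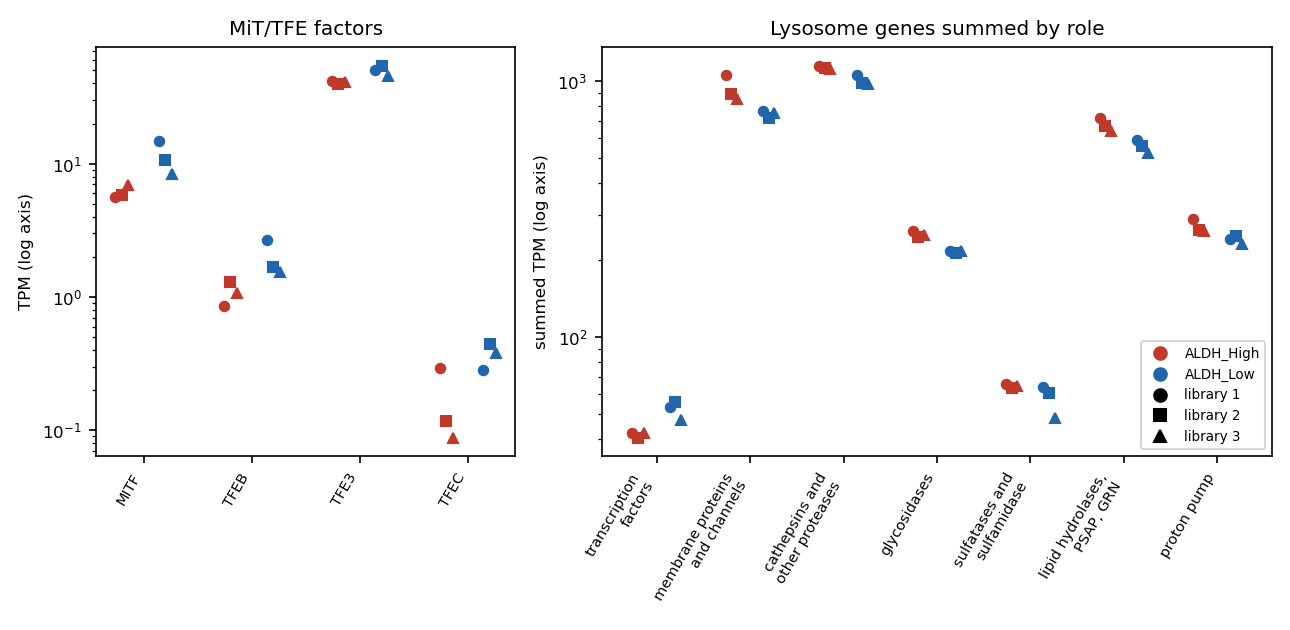
Left, TPM of the 4 MiT/TFE factors in each library (log axis); right, TPM summed over the genes of each role in each library (log axis). TFE3 lies between 39.3 and 54.4 TPM and TFEB between 0.851 and 2.70 TPM; in the membrane, protease, glycosidase, lipid hydrolase and proton pump roles every ALDH_High sum lies above every ALDH_Low sum.

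The clearest differences were in a few hydrolases. GAA (ENSG00000171298, chromosome 17, 80101533 to 80119881), which breaks down glycogen in the lysosome, had 76.3, 76.3 and 71.7 CPM in ALDH_High and 35.4, 33.4 and 33.9 CPM in ALDH_Low. The groups lay far apart and each was tight. GAA was higher in ALDH_High by 1.13 on the log2 scale (SE 0.11, edgeR adjusted p 6.19e-05), and passed under all 15 alternatives. GALNS (ENSG00000141012, chromosome 16, 88813734 to 88856970), a sulfatase of keratan and chondroitin sulfate breakdown, had 28.8, 24.3 and 20.6 CPM against 16.1, 15.0 and 14.4 CPM. Its ALDH_High libraries spread more widely, without reaching the ALDH_Low range. GALNS was higher by 0.69 on the log2 scale (SE 0.15, edgeR adjusted p 0.00925), under all 15 alternatives as well.

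Among the 13 proteases, 4 were higher in ALDH_High (CTSF, CTSK, CTSA and CTSC) and 0 were lower, with a median log2 fold change of 0.34, beside 10.8% higher and 9.83% lower among all genes tested. CTSA and CTSC lost their calls when single libraries were left out. CTSF (ENSG00000174080, chromosome 11, 66563464 to 66568879), cathepsin F, is a cysteine protease of the papain type. It had 27.3, 24.4 and 21.8 CPM in ALDH_High and 10.5, 8.77 and 8.56 CPM in ALDH_Low. The lowest ALDH_High library was above all ALDH_Low libraries for CTSF, which was higher by 1.40 on the log2 scale (SE 0.15, edgeR adjusted p 0.000161) and passed under all 15 alternatives. CTSK (ENSG00000143387, chromosome 1, 150794880 to 150809577), cathepsin K, is the collagen-cleaving protease of bone-resorbing osteoclasts. It was rare here, with 100, 104 and 96 counts (3.94, 3.01 and 2.81 CPM) in ALDH_High and 34, 9 and 12 counts (0.882, 0.301 and 0.431 CPM) in ALDH_Low. The ALDH_Low counts are few, and ALDH_Low library 1 is the highest of them. CTSK had the largest log2 fold change of the 43 genes, 2.55 (SE 0.40, edgeR adjusted p 0.00137), ranging from 1.40 to 3.15 over the 14 alternatives that tested it, all past the threshold; the highest value came without ALDH_Low library 1. At 1.65 TPM over the 6 libraries, CTSK ranked 41 of 43 in level.

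CTSC, CTSA and the remaining proteases moved less. CTSC, which activates serine proteases by trimming their ends, had 364, 361 and 383 CPM in ALDH_High and 294, 273 and 307 CPM in ALDH_Low. It was higher by 0.34 on the log2 scale (SE 0.10, edgeR adjusted p 0.0378) with no overlap, and passed under 6 of 15 alternatives, missing when any library other than ALDH_High library 1 was left out (edgeR adjusted p up to 0.153). CTSA, which protects beta-galactosidase and the sialidase NEU1, had 154, 131 and 124 CPM against 108, 95.9 and 99.0 CPM. It was higher by 0.43 (SE 0.12, edgeR adjusted p 0.0286) and passed under 12 of 15 alternatives, the exceptions being the fits without ALDH_High library 2, ALDH_Low library 2 or ALDH_Low library 3 (edgeR adjusted p up to 0.113). CTSA lies on chromosome 20, where the median log2 fold change of the 354 other protein-coding genes tested was 0.28 and 81.9% were above 0. CTSZ, on the same chromosome, had a log2 fold change of -0.026. The part of these chromosome-wide levels in the CTSA value was not tested.

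Cathepsins B, D and L did not pass. CTSD, the main aspartic protease of lysosomes, had 277, 197 and 171 CPM in ALDH_High and 197, 180 and 180 CPM in ALDH_Low. The groups overlapped, with ALDH_High library 1 standing above the other libraries (log2 fold change 0.21, SE 0.16, edgeR adjusted p 0.429). CTSB and CTSL, both cysteine proteases, lay on the other side of 0. The CTSB values were 203, 152 and 142 CPM against 218, 244 and 209 CPM, a log2 fold change of -0.43 (edgeR adjusted p 0.0616), past the threshold under 4 of 15 alternatives. CTSL had 97.9, 96.2 and 84.2 CPM against 112, 110 and 117 CPM, a log2 fold change of -0.29 (edgeR adjusted p 0.0884), past it under 1 of 15. The groups did not overlap for either gene. CTSV, the close relative of CTSL, was rare, at 2.51 TPM in ALDH_High and 1.30 TPM in ALDH_Low, and had a log2 fold change of 0.87 (edgeR adjusted p 0.0856). CTSS, a protease of antigen-presenting cells, had 6 to 28 counts a library and the widest error of the set (log2 fold change 0.085, SE 0.59). LGMN (0.40), CTSH (0.54) and TPP1 (0.29) did not pass either, with edgeR adjusted p of 0.0707, 0.216 and 0.344.

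**Figure D3:**
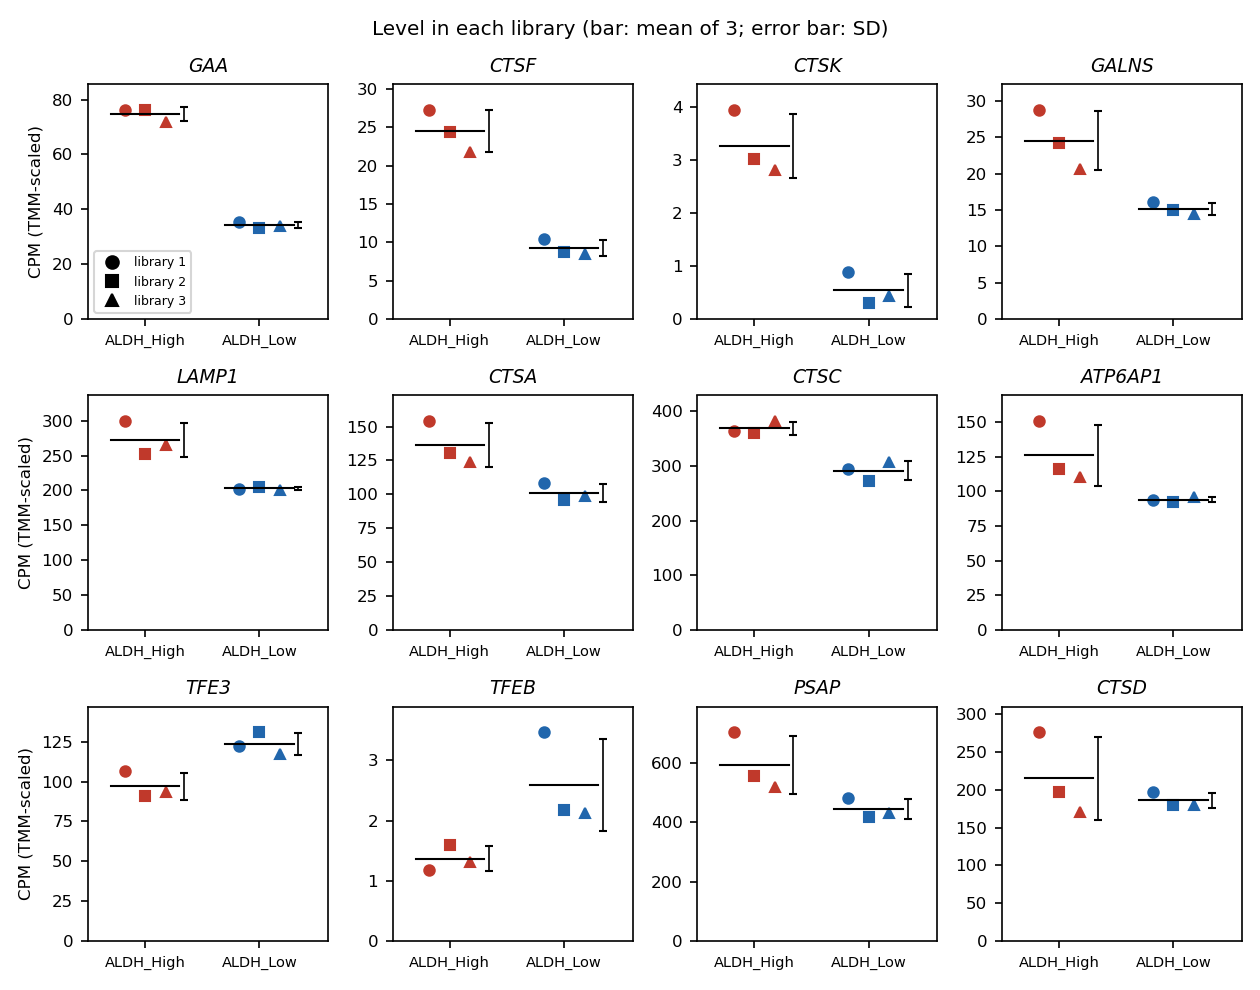
TMM-scaled CPM of 12 genes in each library (y axis from 0; circles, squares and triangles are libraries 1 to 3, horizontal bars are means and error bars SD of 3 libraries). GAA, CTSF and CTSK separate the groups widely, and GALNS separates them by a smaller gap. TFE3 and TFEB are the only panels with ALDH_Low above ALDH_High. ALDH_High library 1 is the highest in the PSAP, CTSD, CTSF, CTSK, GALNS, LAMP1, CTSA and ATP6AP1 panels, and barely so in the GAA panel.

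Of the 6 membrane proteins, LAMP1 was higher and none was lower, beside 10.8% and 9.83% of all genes tested. A log2 fold change above 0 was found in 5 of 6, and in 48.6% of all genes tested. LAMP1 (ENSG00000185896, chromosome 13, 113297239 to 113323672) had 300.1, 252 and 265 CPM in ALDH_High and 203, 205 and 201 CPM in ALDH_Low. The ALDH_Low libraries were within a few CPM of each other, and all lay below the lowest ALDH_High library. LAMP1 was higher by 0.42 on the log2 scale (SE 0.11, edgeR adjusted p 0.0182) and passed under 12 of 15 alternatives, missing when any 1 of the ALDH_Low libraries was left out (edgeR adjusted p up to 0.0634). It lies on chromosome 13, where the median log2 fold change of the 231 other protein-coding genes tested was 0.37 and 84.8% were above 0, close to the value of LAMP1 itself; the part of this in the LAMP1 value was not tested. LAMP2, needed for the fusion of autophagosomes with lysosomes, had 66.0, 61.2 and 68.3 CPM against 60.7, 51.6 and 47.5 CPM. These groups did not overlap, by a margin of under 1 CPM, and LAMP2 did not pass (log2 fold change 0.29, SE 0.12, edgeR adjusted p 0.133). SCARB2, the carrier of glucocerebrosidase, had a log2 fold change of 0.29 (edgeR adjusted p 0.0971). CD63, a tetraspanin and by TPM the most abundant of the 43 genes (645 in ALDH_High and 520 in ALDH_Low), had 486, 346 and 312 CPM against 318, 288 and 343 CPM (log2 fold change 0.27, edgeR adjusted p 0.292). The calcium channel MCOLN1 and the chloride-proton exchanger CLCN7 had log2 fold changes of 0.12 and -0.035.

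Apart from GAA, none of the 7 glycosidases passed. Their log2 fold changes ran from -0.47 for FUCA1, a fucosidase, to 0.18 for MANBA, a mannosidase. HEXA, the alpha subunit of hexosaminidase A, had 91.4, 76.8 and 74.6 CPM in ALDH_High and 71.2, 72.1 and 71.4 CPM in ALDH_Low. The groups did not overlap, but its log2 fold change of 0.18 did not pass (edgeR adjusted p 0.328). For GUSB (beta-glucuronidase), NEU1 (sialidase) and GLA (alpha-galactosidase) the groups overlapped and the values were 0.068, 0.17 and -0.12. Besides GALNS, the sulfatase group had values of 0.43 for ARSA, 0.27 for SGSH and -0.27 for IDS, with edgeR adjusted p between 0.152 and 0.248. Exons of IDS share 75.0% of their bases with another annotated gene on the same strand, so its counts are uncertain. The same holds in part for CTSD and TPP1, with 22.9% and 11.6% shared on the same strand. The strand setting of the counting is not given in the sources used here, so the same may hold for CTSZ, CTSD, CLCN7, HEXA and CTSA. These share 31.7%, 23.4%, 13.5%, 13.2% and 11.1% with a gene on the opposite strand.

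No gene of the lipid hydrolase group passed. PSAP, whose product is cut into the saposins that present lipids to hydrolases, missed the threshold by little. It had 705, 555 and 518 CPM in ALDH_High and 481, 418 and 432 CPM in ALDH_Low. Each ALDH_High library was above each ALDH_Low library (log2 fold change 0.42, SE 0.13, edgeR adjusted p 0.0522), and PSAP passed under 8 of 15 alternatives. PPT1, which removes fatty acids from proteins, had a value of 0.19, the lysosome regulator GRN -0.030, ASAH1 (acid ceramidase) -0.25 and LIPA (acid lipase) -0.30, with edgeR adjusted p between 0.220 and 0.910.

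In the proton pump, the accessory subunit ATP6AP1 was higher, beside 10.8% of all genes tested, and the 5 core subunits did not pass. ATP6AP1 (ENSG00000071553, chromosome X) had 151, 116 and 111 CPM in ALDH_High and 93.8, 92.4 and 96.2 CPM in ALDH_Low. The groups did not overlap, and ALDH_High library 1 was the farthest from ALDH_Low. The log2 fold change of ATP6AP1 was 0.42 (SE 0.13, edgeR adjusted p 0.0479), past the threshold under 9 of 15 alternatives. It missed without ALDH_High library 2 or any 1 of the ALDH_Low libraries (edgeR adjusted p up to 0.141). The core subunits ATP6V1A, ATP6V1B2 and ATP6V1H of the ATP-splitting part had log2 fold changes of 0.082, 0.25 and -0.0033. The membrane-part subunits ATP6V0A1 and ATP6V0D1 had -0.032 and -0.11. Their standard errors were between 0.11 and 0.16.

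Summed by role, TPM gave the same picture of small differences. The 43 genes summed to 3574, 3294 and 3221 TPM in ALDH_High and 2992, 2839 and 2800 TPM in ALDH_Low, a ratio of means of 1.17. The ratio was 1.25 for the membrane proteins, 1.21 for the lipid hydrolase group, 1.17 for the glycosidases, 1.13 for the proteases, and 1.12 for both the sulfatases and the proton pump. The sum of TFEB and TFE3 had a ratio of 0.799. These sums are dominated by a few abundant transcripts, foremost CD63, CTSC and PSAP with means of 583, 340 and 300.1 TPM over the 6 libraries, and were not tested.

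ALDH_High library 1 stood apart in these genes, and also over all genes tested. On the second principal component (14.5% of the variance) it scored 49.1, against -22.0 and -32.5 for ALDH_High libraries 2 and 3. It had the highest CPM of its group in 33 of the 43, against 43.3% of all genes tested, while ALDH_High libraries 2 and 3 each had the highest in 5. The median coefficient of variation of the 43 genes was 11.8% among ALDH_High libraries and 8.0% among ALDH_Low libraries. Without ALDH_High library 1, all 9 genes still passed, and CTSB and ATP6V0D1 passed as lower, ATP6V0D1 with a log2 fold change of -0.31 (edgeR adjusted p 0.0431). NEU1 then had a log2 fold change of -0.087 and CTSD of 0.0044. The labels give no date or batch for this library.

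Across the promoter windows, 5 of the 11 genes with the core CACGTG were higher and 0 were lower, with a median log2 fold change of 0.27. Among the 18 genes with a window and no core, 2 were higher (CTSC and ATP6AP1) and TFE3 was lower, with a median of -0.028. Over all tested genes with a window, 11.3% of genes with it and 12.0% of those without it were higher, and 7.68% and 9.87% were lower. For the CLEAR motif, 12.6% of the 95 genes with it and 11.9% of those without it were higher, and 1.05% and 9.67% were lower. Among the lysosome genes that hold it, GAA and GALNS were higher, while MCOLN1 had 30.8, 25.4 and 23.7 CPM against 23.5, 24.7 and 25.4 CPM (log2 fold change 0.12, edgeR adjusted p 0.611). LAMP1 and CTSA, both with the core, are those on chromosomes 13 and 20.

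**Figure D4:**
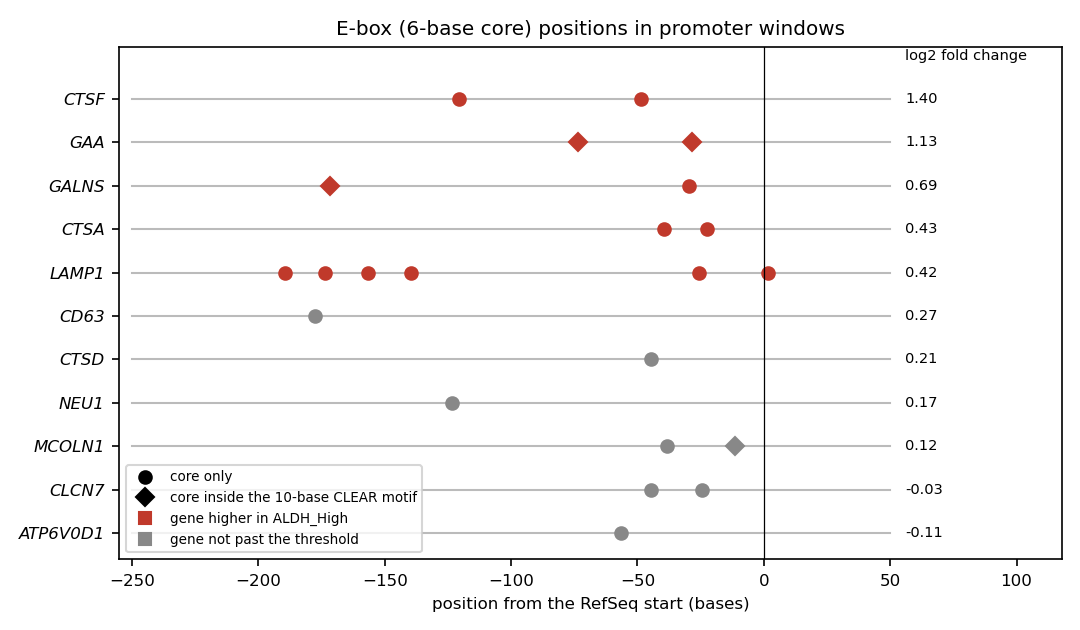
Positions of the E-box core (x axis, bases from the RefSeq transcript start) in the promoter windows of the 11 genes that hold it, ordered by log2 fold change (printed at the right); diamonds mark cores inside the whole CLEAR motif. The 5 genes at the top were higher in ALDH_High, and the other 6 did not pass.

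Further lysosome genes were described by lists that do not include the 43. Of 32 genes of the MiT/TFE family and the mTORC1 machinery that controls it, all were tested. Of these, 3 were higher and 3 were lower, beside 10.8% and 9.83% of all genes tested, with a median log2 fold change of -0.038. Values in parentheses after the genes of these lists are the log2 fold change and the edgeR adjusted p. PPP3CA, a catalytic subunit of calcineurin, the phosphatase that acts on TFEB, had 16.4, 15.3 and 16.3 CPM in ALDH_High and 37.7, 30.3 and 26.5 CPM in ALDH_Low, and was lower with no overlap (log2 fold change -0.98, edgeR adjusted p 0.00133). The sestrins SESN3 (2.39, edgeR adjusted p 0.00273) and SESN1 (0.74, edgeR adjusted p 0.0183), which restrain mTORC1, were higher, and MITF was lower. SESN3 was rare, with 131, 96 and 129 counts in ALDH_High and 30, 33 and 9 in ALDH_Low. Its log2 fold change ran from 0.69 to 2.78 over the 12 alternatives that tested it, all past the threshold. RRAGD (0.77, edgeR adjusted p 0.0188), a Rag GTPase, was higher and FLCN (-0.52, edgeR adjusted p 0.0327), the GTPase-activating protein folliculin, was lower; this pair was named after its values were seen. The count of calls, 6, was 4 without ALDH_High library 2, ALDH_High library 3 or ALDH_Low library 2, and 1 gene was higher without ALDH_High library 3. FLCN passed under 8 of 15 alternatives, RRAGD under 11 and SESN1 under 12.

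Of 35 other hydrolases and activators, 33 were tested, 7 were higher and 2 were lower (median 0.17), beside 10.8% and 9.83% of all genes tested. The sulfatase ARSB (0.76, edgeR adjusted p 0.00520), PLBD2 (0.54, adjusted p 0.0132) and the folate hydrolase GGH (0.52, adjusted p 0.0144) were higher, and the cholesterol carrier NPC2 was lower (-0.73, adjusted p 0.0105). The count of calls, 9, was 4 without any 1 of the ALDH_Low libraries, 5 without ALDH_High library 2 and 11 without ALDH_High library 1. Of 33 other membrane proteins, 31 were tested, 5 were higher and 2 were lower (median 0.096), beside the same shares of all genes. CD68, a heavily glycosylated relative of LAMP1, was lower, with mean levels of 17.4 and 63.1 CPM (log2 fold change -1.86, edgeR adjusted p 0.000273). LAPTM4B (0.58, edgeR adjusted p 0.00386), LAPTM4A (0.51, adjusted p 0.0108) and the channel TPCN2 (0.52, adjusted p 0.0149) were higher. The count of calls in this list, 7, became 2 when ALDH_Low library 2 was left out, and 4 when library 3 of either group was. Without ALDH_High library 3, 15.6% of all genes tested passed.

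Of 19 other proton pump genes, 16 were tested; ATP6AP2, the partner of ATP6AP1, was higher, with mean levels of 80.4 and 47.5 CPM (log2 fold change 0.76, edgeR adjusted p 0.000900), and TCIRG1, an alternative a subunit, was lower (-0.43, edgeR adjusted p 0.0238). The median of these 16 was 0.0025, and the calls stand beside 10.8% higher and 9.83% lower among all genes tested. TCIRG1 lost its call in several fits with 1 library left out. ATP6AP2 was the 1 call left without ALDH_High library 2, ALDH_Low library 2 or ALDH_Low library 3, and 4 genes passed without ALDH_High library 1. Of 26 genes that deliver enzymes to lysosomes, 3 were higher and 1 was lower (median 0.083), beside the same shares of all genes. CLN6 (0.39, edgeR adjusted p 0.0217), GNPTAB (0.42, adjusted p 0.0292), which starts the mannose 6-phosphate tag, and IGF2R (0.42, adjusted p 0.0297), a receptor for that tag, were higher, and the adaptor subunit AP1S1 was lower (-0.46, adjusted p 0.0400). None of these 4 kept the threshold without ALDH_Low library 3, where the list had 0 calls and 14.2% of all genes tested passed. The list had 1 or 2 calls without ALDH_High library 2 or 3 or ALDH_Low library 1 or 2. It had 7 without ALDH_High library 1, where 23.7% of all genes tested passed.

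Of 40 autophagy genes, all tested, 4 were higher and 3 were lower (median 0.00031), beside 10.8% and 9.83% of all genes tested. SQSTM1, the cargo receptor p62, was lower, with 346 ± 83.6 CPM in ALDH_High and 782 ± 33.7 CPM in ALDH_Low (mean ± SD of 3 libraries, log2 fold change -1.18, edgeR adjusted p 0.000577). ATG12, which is joined to ATG5 in building autophagosomes, was lower, with 38.0 ± 3.26 and 92.2 ± 8.57 CPM (log2 fold change -1.28, edgeR adjusted p 6.81e-05). ATG101 (0.56, adjusted p 0.0129) and UVRAG (0.51, adjusted p 0.0175) were higher. The count of calls, 7, was 3 without any 1 of the ALDH_Low libraries and 4 without ALDH_High library 2. Of the 4 higher genes, 0 were left without ALDH_Low library 2, 1 without ALDH_Low library 1 or 3, and 2 without ALDH_High library 2. Of 10 cystatins, inhibitors of cysteine cathepsins, 3 were tested and CST2 was higher, beside 10.8% of all genes tested. CST2 had 23, 33 and 28 counts in ALDH_High and 1, 0 and 0 in ALDH_Low, and was at least 9.38-fold higher against a floor of 3 counts in each ALDH_Low library; it lies on chromosome 20.

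Other measures of the libraries are given beside these results, and their part in them was not tested. Total counts per library overlapped between the groups, at 26692868 to 34226461 in ALDH_High and 28027125 to 37830603 in ALDH_Low. Of 12 G2 and M phase markers 6 were higher and 0 were lower, beside 10.8% and 9.83% of all genes tested. The summed level of these 12 was 3924 to 4250 CPM in ALDH_High and 2551 to 3020 CPM in ALDH_Low. Mitochondrial transcripts took 1.31% to 1.66% of counts in ALDH_High and 2.00% to 3.06% in ALDH_Low. Of 12 white blood cell markers, which matter because macrophages are rich in cathepsins and CD68, 5 were tested. LYZ was higher and CD14 and FCER1G were lower, beside 10.8% and 9.83% of all genes tested. These calls rest on single libraries and low counts: 0 passed without ALDH_Low library 2, and CD14 and FCER1G had 3 to 31 counts a library. The summed level of the 12 markers overlapped between the groups, at 3.47 to 8.16 CPM in ALDH_High and 3.31 to 5.06 CPM in ALDH_Low. PTPRC had at most 4 counts in a library, and AIF1, SPI1 and CD3E at most 3. Some of the others were above this. CSF1R had 13, 6 and 9 counts in ALDH_High and 54, 30 and 13 in ALDH_Low (log2 fold change -1.64, edgeR adjusted p 0.0524). CD163 had up to 26 counts in a library, ITGAM up to 13 and LYZ up to 170. Of the melanoma markers, SOX10, S100B and S100A1 were higher and MITF was lower in ALDH_High, beside 10.8% and 9.83% of all genes tested. MLANA and TYR had at most 3 counts in any library.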

How the data were processed

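RNA sequencing of 6 libraries of sorted A375 cells was used. The authors deposited estimated counts per gene, rounded to whole numbers, as the values show: in each library 133 to 177 genes had a count of 0 beside a TPM above 0. They also deposited TPM values, with gene lengths not given in the sources used here. Per the submitters' processing notes, the tools were FastQC 0.11.3, STAR 2.5.1b, HTSeq 0.6.1 and DESeq2, with GRCh38 as the build; the roles, annotation and strand setting are not given in the sources used here. The authors' DESeq2 columns were not used. The 261 rows with an Ensembl identifier and no gene name stayed in and held at most 0.0267% of the counts of a library.

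Genes were filtered with filterByExpr, scaled with TMM and compared by the quasi-likelihood test of edgeR 4.0.16 (both directions at once), with the group as the only term; an adjusted p below 0.05 was the threshold. SE was taken from the log2 fold change and the F statistic. Code was tested on simulated data. Positions come from GENCODE 44 and promoter windows from RefSeq. The floor of 3 counts covers counting error only. The members and lists were chosen with earlier results of these data known. All 43 genes were reported, with values in every library for TFEB, TFE3, LAMP1, LAMP2, CTSD and those past the threshold, others where a value bears on a call; of each other list, up to 4 called genes with the smallest p were named by rule, and RRAGD and FLCN besides. The value of 1 marker gene is not reported here. The 15 alternative fits used other scaling (DESeq2 size factors, upper-quartile), filtering (none, or at least 10 counts in every library), a replicate block, DESeq2 1.42.0, limma 3.58.1 on log2(TPM + 1), with or without a mean TPM minimum of 1, or on log2(TPM + 0.1), and each library left out; adjusted p below 0.01, a change of at least 1 in size on the log2 scale, and leaving out chromosomes 13, 18 and 20 were also tried.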

Additional observations from a re-analysis of the deposited data

How the results depend on the processing

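None of the 9 genes past the threshold changed direction under any of the 15 alternative fits, and CTSF, GAA, GALNS and CTSK passed under every fit that tested them. Of the other 34, 7 passed under at least 1 fit. The number of lysosome genes past the threshold (9: 8 higher, 1 lower) was 4 (all higher) at an adjusted p below 0.01 and 3 (all higher) with a change of at least 1 in size on the log2 scale, both stricter by construction. Across the fits that left out 1 library it ran from 4 to 11, with 4 to 8 higher and 0 to 3 lower; the 5 calls with ALDH_High library 2 left out, and the 4 with ALDH_Low library 2 or 3 left out, came with lower shares of all genes too (14.4%, 14% and 14.2%). The 1 lower gene, TFE3, left 0 lower with DESeq2 size factors, DESeq2 and all 3 limma fits; there were 4 with upper-quartile factors and 2 with at least 10 counts in every library. The cause was not tested. The median log2 fold change of the 43 genes ran from 0.085 (without ALDH_High library 1) to 0.27. Outside chromosomes 13, 18 and 20 there were 7 calls, since LAMP1 and CTSA drop out.

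Over all genes, the 3513 calls (1838 higher, 1675 lower) became 1930 (1060, 870) at 0.01, 1958 (1004, 954) with the fold limit, and 2006 (1155, 851) when limma was run on log2(TPM + 1) with no filter. Calls lower in ALDH_High were 1047 and 1051 in limma with pseudocounts 1 and 0.1. Leaving out 1 library gave between 2488 and 4221 calls, of which 1306 to 2172 were higher, while 1073 (ALDH_High library 2 left out) to 2049 were lower.

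Uncalled log2 fold changes near 0 changed sign. In limma on log2(TPM + 1), with or without the TPM filter, and on log2(TPM + 0.1), they were 0.014 and 0.014 for CLCN7, 0.029 and 0.029 for CTSZ, 0.00585 and 0.00586 for GRN, 0.014 and 0.015 for ATP6V0A1, and 0.041 and 0.042 for ATP6V1H. For ATP6V1H they were 0.0054 with DESeq2 size factors, 0.00908 without a count filter and 0.017 in DESeq2. Across left-out libraries the values ran from -0.078 to 0.027 for CLCN7, -0.54 to 0.46 for CTSS, -0.12 to 0.037 for CTSZ, -0.087 to 0.33 for NEU1, -0.17 to 0.092 for GRN, -0.31 to 0.021 for ATP6V0D1, -0.085 to 0.021 for ATP6V0A1, -0.017 to 0.20 for ATP6V1A and -0.093 to 0.077 for ATP6V1H.

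With the replicate number as a block, 8 lysosome genes and 3748 of all genes passed; TFE3, CTSC and ATP6AP1 missed the threshold, and CTSB and PSAP passed. Deviations from the group mean correlated at 0.15, 0.076 and 0.11 between same-numbered libraries, and the numbers were not used as pairs.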
